A study of Homo sapiens with 18 samples.

Results

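Expression of the long non-coding RNA NEAT1 and of 8 genes for proteins of the paraspeckle was examined across 18 RNA-seq libraries from human multiple myeloma cell lines. The 9 members were chosen by symbol: NEAT1, NONO, SFPQ, PSPC1, RBM14, HNRNPK, TARDBP, CPSF6 and NUDT21. They are 9 of 62703 genes counted, and all 9 passed the filter on low counts in every line, which asked for at least 10 reads in at least 1 library. The cultures carry the line labels AMO1, H929 and LP1. In each line 3 libraries are labelled gN1E, for the NEAT1 LNA-gapmeR g#N1_E, and 3 are labelled SCR, for a scrambled gapmeR. Cells took up the naked gapmeR from the medium at 5 µM for 48 h. Such a gapmeR pairs with its target RNA, which RNase H then cleaves. Each line is 1 established cell line, and nothing in the labels says whether replicates came from separate cultures, so that p-values measure the spread between these libraries.

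Paraspeckles are nuclear bodies assembled on the long isoform of NEAT1. NONO, SFPQ and PSPC1 form the DBHS family of RNA-binding proteins and act as pairs. NONO and SFPQ coat the long isoform and keep it stable, and RBM14 helps the particles join into whole paraspeckles. CPSF6 and NUDT21 are subunits of the cleavage factor CFIm, which favours the early poly(A) site that yields the short NEAT1 isoform. HNRNPK hinders that site and so favours the long isoform, whereas TARDBP (TDP-43) favours the short one. The deposited counts are per gene, so both NEAT1 isoforms fall into 1 value, and the protein members were measured as RNA only.

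Total counts per library ran from 28061606 to 69937229. In AMO1 the libraries labelled gN1E (28061606 to 49784737 counts) were shallower than those labelled SCR (53227560 to 66142827). The libraries labelled H929 stood close to those labelled AMO1. Across 13701 genes their log2 levels correlated at 0.951 to 0.958, against 0.801 to 0.812 between H929 and LP1. Every library labelled H929 held the V segment IGHV3-23 at 59.15% or more of the AMO1 mean, whereas those labelled LP1 had 0 counts of it. IGHG1 (644 CPM or more, against at most 2.00 CPM in AMO1) set the H929 libraries apart from AMO1. CCND2 was at 1575 to 1973 CPM in the libraries labelled AMO1 and H929 and at most 1.83 CPM in LP1, while FGFR3 was at 558.9 to 689.1 CPM in LP1 and at most 1.55 CPM in the others. Which line stands behind each label is therefore unsure, and every difference between lines is one between labels. Results for AMO1 and H929 are given under their labels, and whether they stand for independent lines is not known. All 9 plasma cell markers, among them SDC1, IRF4 and JCHAIN, were at 1 CPM or more on average in every group, and the 4 B cell markers summed to at most 1.70 CPM, the 4 T cell markers to at most 30.2 and the 4 myeloid markers to at most 9.56 CPM. The 6 epithelial and stromal markers summed to 338.1 to 385.2 CPM in LP1, mostly PECAM1, and to at most 23.5 CPM in the other lines, and their part in the differences of LP1 was not tested. Some marker sums also moved with the gapmeR label. In LP1 the epithelial and stromal sum was 375.4 to 385.2 CPM under SCR and 338.1 to 355.8 under gN1E, and the myeloid sum 6.96 to 9.56 and 3.52 to 6.10 CPM. In H929 the plasma cell sum was 17930 to 18920 CPM under SCR and 20090 to 21290 under gN1E. The T cell sum was 28.7 to 30.2 CPM under SCR and 24.5 to 28.6 under gN1E in AMO1, and 14.2 to 15.5 and 10.4 to 13.9 CPM in LP1. Each of these sums rested mainly on 1 gene. By mean over the line, CSF1R was at 6.37 CPM in LP1, with LYZ, CD14 and MPO at 0.123 CPM or less. CD3E was at 13.2 CPM in LP1, with the other T cell markers at 0.295 CPM or less. In AMO1 CD3E was at 21.9 CPM, with the others at 3.24 CPM or less. SDC1 was at 12930 CPM in H929, followed by JCHAIN at 3548. The part of these markers in the changes between gapmeR labels was not tested. As bulk RNA was measured, fewer cells of a type and less RNA per cell cannot be told apart.

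HNRNPK and RBM14 are the protein members that passed the test between gapmeR labels, so the promoters listed for them by RefSeq (GRCh38.p14, 250 bases before to 50 after a start) are shown, 5′ to 3′ on the gene's strand. Of the 9 members, 7 had an entry in that table, and NEAT1 and SFPQ had none. HNRNPK has 2 entries, at chr9:83980566-83980865 and chr9:83980166-83980465 on the minus strand, and RBM14 has 1, at chr11:66616380-66616679 on the plus strand. Capitals mark CCAAT or its reverse complement ATTGG, the CCAAT box.
HNRNPK, first entry: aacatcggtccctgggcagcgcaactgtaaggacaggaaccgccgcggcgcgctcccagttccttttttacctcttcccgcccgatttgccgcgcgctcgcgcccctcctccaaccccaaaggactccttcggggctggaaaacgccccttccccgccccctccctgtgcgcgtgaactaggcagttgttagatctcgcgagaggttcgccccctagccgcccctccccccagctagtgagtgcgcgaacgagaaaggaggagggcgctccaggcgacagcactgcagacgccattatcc
HNRNPK, second entry: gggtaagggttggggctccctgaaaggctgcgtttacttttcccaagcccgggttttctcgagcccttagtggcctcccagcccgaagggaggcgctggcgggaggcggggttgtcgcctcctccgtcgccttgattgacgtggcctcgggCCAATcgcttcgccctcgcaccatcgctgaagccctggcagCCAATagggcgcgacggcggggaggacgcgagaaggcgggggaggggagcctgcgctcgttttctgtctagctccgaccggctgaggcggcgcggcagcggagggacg
RBM14: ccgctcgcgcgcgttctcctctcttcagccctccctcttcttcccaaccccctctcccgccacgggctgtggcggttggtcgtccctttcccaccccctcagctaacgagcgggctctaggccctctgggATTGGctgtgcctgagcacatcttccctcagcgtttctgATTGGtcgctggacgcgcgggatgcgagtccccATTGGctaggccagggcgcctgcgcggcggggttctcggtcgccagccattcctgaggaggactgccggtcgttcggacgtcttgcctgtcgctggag

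The RBM14 promoter held the CCAAT box 3 times and the second HNRNPK entry 2 times, while the first HNRNPK entry held none. Of the 7 members with an entry, 5 had a CCAAT box in at least 1 entry, which 34.6% of all 35116 promoters of that length had. The GC box GGGCGG, searched on both strands like the others, was in 4 of the 7 and in 45.0% of all promoters. TATAAA and TGACGTCA were in none of the 7, and in 11.5% and 1.8% of all promoters. None of these motifs contains another, and a match describes the sequence only. The G and C content of the members' entries lay between 56.3% and 68.3%, against a median of 58.7%.

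NEAT1 (ENSG00000245532.11) lies on the plus strand of chromosome 11 in hg38, from 65422774 to 65445540, and is annotated as 1 stretch of 22767 exonic bases. Levels are given as CPM, the usual depth-scaled count, on 1 TMM scale over the 18 libraries. In AMO1, NEAT1 was at 75.7, 78.8 and 90.8 CPM in the libraries labelled SCR and at 473.2, 553.4 and 516.9 CPM in those labelled gN1E. In H929 it was at 79.8, 72.7 and 79.2 CPM under SCR and at 554.2, 463.8 and 541.7 CPM under gN1E. In LP1 it was at 134.7, 173.1 and 188.8 CPM under SCR and at 655.6, 666.7 and 828.6 CPM under gN1E. In each line every library labelled gN1E lay above every library labelled SCR. A gapmeR against NEAT1 would lower it, so the levels contradict the label. The names inside the deposited tables also exchange the labels SCR and gN1E, and H929 and LP1. Libraries are therefore called by their labels. Changes between gapmeR labels are given as gN1E minus SCR, so that a rise goes in the direction of NEAT1 and a fall against it.

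The log2 fold change of NEAT1, gN1E minus SCR, was 2.66 in AMO1 (standard error 0.074, adjusted p = 5.10e-13, edgeR quasi-likelihood test). It was 2.74 in H929 (standard error 0.068, adjusted p = 3.11e-14, edgeR) and 2.14 in LP1 (standard error 0.19, adjusted p = 0.0269, edgeR). With 3 libraries against 3, the two-sided exact permutation test gave p = 0.1 in each line, the smallest p it allows. The LP1 call was lost in edgeR without SCR B (adjusted p = 0.176), gN1E A (0.111), gN1E B (0.0886) or gN1E D (0.0578), with log2 fold changes of 2.01 to 2.20 in those 4 fits. Ranked by p, NEAT1 was gene 3 of 22933 in AMO1, 11 of 23499 in H929 and 206 of 23165 in LP1.

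**Figure D1:**
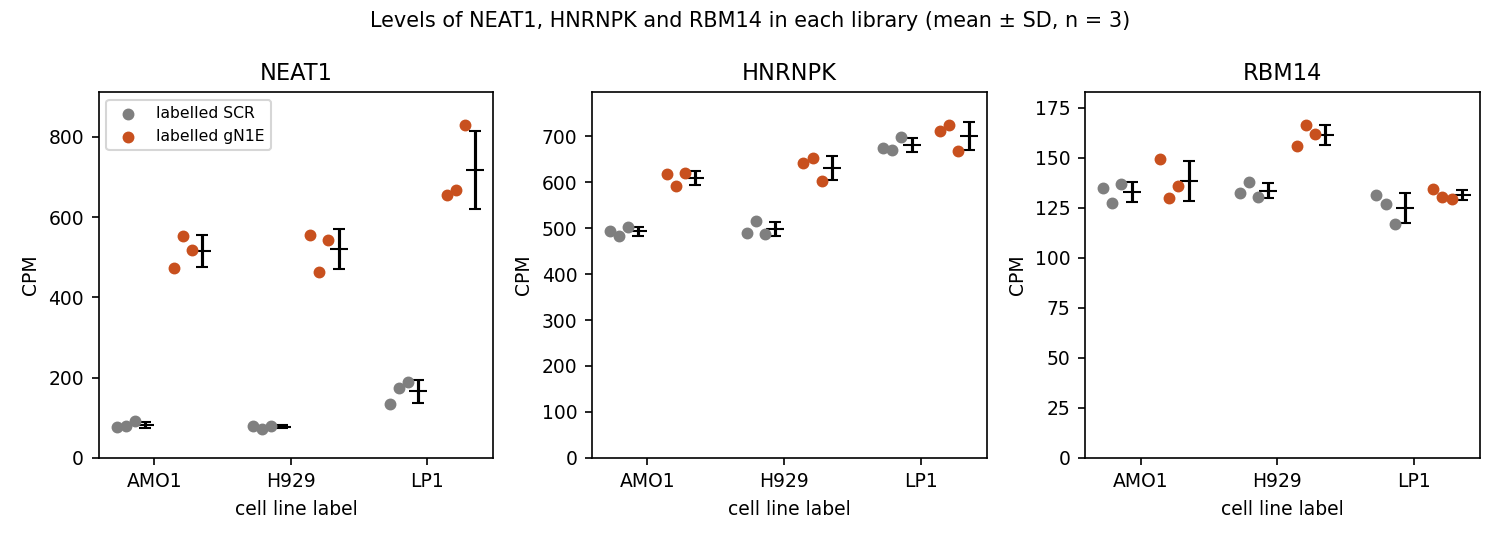
CPM of NEAT1, HNRNPK and RBM14 (linear axes from 0) in each library, by cell line label, with points for libraries and black bars for mean ± SD (n = 3). NEAT1 separates the labels in all 3 lines, HNRNPK in AMO1 and H929, and RBM14 in H929, on this TMM scale (in LP1 RBM14 also separates when scaled within the line or by totals, and HNRNPK when scaled by totals).

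Fold changes of the protein members were at most 1.26. Of the 8 protein genes, 1 was called in AMO1, 2 in H929 and 0 in LP1, at an adjusted p under 0.05 in edgeR. Over all genes tested the share called was 2.06% in AMO1, 5.47% in H929 and 1.43% in LP1. An unadjusted p under 0.05 was found for 4 of the 8 in AMO1, 4 in H929 and 0 in LP1, where 12.2%, 17.7% and 13.0% of all genes had one. In LP1 DESeq2 and limma-voom also called 0. All calls of protein members went in the direction of NEAT1.

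HNRNPK (ENSG00000165119.22, minus strand of chromosome 9, 83968083 to 83980631) encodes a poly(C)-binding protein. In AMO1 it was at 493.2, 484.1 and 503.4 CPM under SCR and at 617.0, 592.5 and 619.7 CPM under gN1E. In H929 it was at 490.6, 515.6 and 487.2 CPM under SCR and at 641.4, 652.4 and 602.4 CPM under gN1E. The labels did not overlap in either of these lines. In LP1 the libraries labelled SCR (673.9, 669.7 and 698.7 CPM) were already above those of both other lines, and overlapped with gN1E (711.0, 724.2 and 667.3 CPM). The log2 fold change was 0.31 in AMO1 (standard error 0.050, adjusted p = 9.37e-04, edgeR), a fold of 1.24. It was 0.33 in H929 (standard error 0.049, adjusted p = 3.19e-05, edgeR), a fold of 1.26. In LP1 it was 0.06 (standard error 0.048, adjusted p = 0.625, edgeR), with a 95% interval of -0.04 to 0.16. Both calls held in the alternatives of scaling, tool, filter, block and left-out library, with log2 fold changes of 0.27 to 0.33 in AMO1 and 0.28 to 0.37 in H929, but not with a 1.5-fold limit. Scaled by totals alone, the LP1 labels also stood apart, higher under gN1E, and the test still made no call. The table lists 5 HNRNPK pseudogenes by symbol, the highest at 560 counts against 17428 to 42475 for HNRNPK, so some reads may be split among copies or left uncounted.

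RBM14 (ENSG00000239306.5, plus strand of chromosome 11, 66616626 to 66629934) encodes a prion-like RNA-binding coactivator. In H929 it was at 132.5, 137.9 and 130.5 CPM under SCR and at 156.1, 166.3 and 162.0 CPM under gN1E, with no overlap. There RBM14 was higher by 0.26 on the log2 scale (adjusted p = 4.64e-04, edgeR, standard error 0.047). The call held in the alternatives of scaling, tool, filter, block and left-out library (0.22 to 0.28), but not with a 1.5-fold limit. In AMO1 the labels overlapped, at 127.5 to 136.7 CPM under SCR and 129.8 to 149.4 CPM under gN1E. The log2 fold change in AMO1 was 0.06 (adjusted p = 0.744, edgeR). In LP1 the levels were 116.8 to 131.2 CPM under SCR and 129.6 to 134.3 CPM under gN1E, and the log2 fold change was 0.10 (adjusted p = 0.421, edgeR). The LP1 labels overlapped on this scale, but not when scaled within LP1 or by total counts. The readthrough gene RBM14-RBM4 covers 6.67% of RBM14's exonic bases on the same strand and had 109 to 242 counts, against 3817 to 10059 for RBM14.

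**Figure D2:**
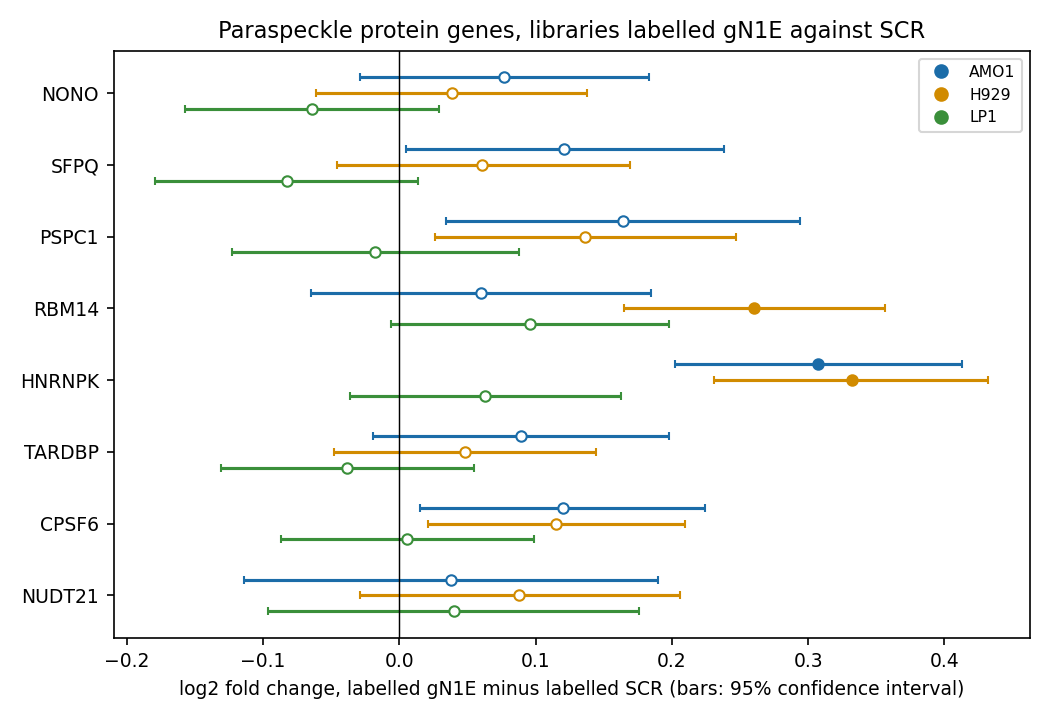
Log2 fold change (gN1E minus SCR) of the 8 protein members in each line with 95% confidence intervals from edgeR, filled points marking an adjusted p under 0.05. HNRNPK in AMO1 and H929 and RBM14 in H929 are filled, and every LP1 interval includes 0.

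With all libraries and no replicate block, no gene of the DBHS family passed the test in any line. NONO was at 544.1 to 555.6 CPM under SCR and 564.4 to 604.4 CPM under gN1E in AMO1, with no overlap. In LP1 it was at 534.1 to 550.4 CPM under SCR and 506.3 to 525.8 CPM under gN1E, again with no overlap but against the direction of NEAT1. Its log2 fold changes were 0.08, 0.04 and -0.06 in AMO1, H929 and LP1, the lowest adjusted p being 0.588 (edgeR). SFPQ followed the same order of lines, with 0.12, 0.06 and -0.08 and a lowest adjusted p of 0.387 (edgeR). SFPQ was at 378.0 to 426.7 CPM under SCR and 429.7 to 455.2 CPM under gN1E in AMO1, and at 432.8 to 456.6 against 410.3 to 422.4 CPM in LP1. The separation of the labels for SFPQ was lost in both lines when counts were scaled by totals alone.

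PSPC1, the least abundant of the family, came nearest to the threshold. In AMO1 it was at 72.5, 73.1 and 76.5 CPM under SCR and at 86.6, 76.2 and 85.4 CPM under gN1E, where only gN1E C fell within the SCR range. The log2 fold change of PSPC1 in AMO1 was 0.16 (standard error 0.062, adjusted p = 0.260, edgeR). The AMO1 libraries of replicate letters A and C matched best with their own letter, but those of D did not. With the letter as a block PSPC1 was called (log2 fold change 0.16, adjusted p = 0.0479, edgeR). That fit called 1394 of 22933 genes against 473 without the block. In H929 it was at 53.5, 54.8 and 59.6 CPM under SCR and at 62.6, 62.3 and 61.1 CPM under gN1E, with no overlap and a log2 fold change of 0.14 (adjusted p = 0.160, edgeR). Without SCR C of H929 it was called (adjusted p = 0.0440, edgeR). In LP1 PSPC1 had a log2 fold change of -0.02 and the labels overlapped.

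Of the 4 members that act on the NEAT1 poly(A) site, HNRNPK alone was called. CPSF6 was at 244.7 to 257.7 CPM under SCR and 270.9 to 273.3 CPM under gN1E in AMO1, and at 203.2 to 214.8 against 224.2 to 230.7 CPM in H929. The CPSF6 labels did not overlap in these lines, with log2 fold changes of 0.12 and 0.12 (adjusted p = 0.326 and 0.166, edgeR). Scaled by totals alone, the CPSF6 labels overlapped in both lines, as did those of PSPC1 in H929 and of TARDBP in LP1. In LP1 its 3 libraries labelled gN1E lay between 192.8 and 193.2 CPM, inside the SCR range of 191.2 to 198.8 CPM. TARDBP was at 163.2 to 174.0 CPM under SCR and 177.3 to 180.7 CPM under gN1E in AMO1, and at 230.5 to 236.0 against 217.2 to 228.9 CPM in LP1, so that the labels stood apart in opposite directions. Its log2 fold changes were 0.09, 0.05 and -0.04 in AMO1, H929 and LP1, with a lowest adjusted p of 0.522 (edgeR). NUDT21, the small CFIm subunit, overlapped between labels in all 3 lines, with log2 fold changes of 0.04, 0.09 and 0.04. An unnamed gene model (ENSG00000288725) covers 45.94% of NUDT21's exonic bases on the same strand and had 0 counts in all 18 libraries. Reads in that stretch belong to both models, so the level of NUDT21 may be too low.

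**Figure D3:**
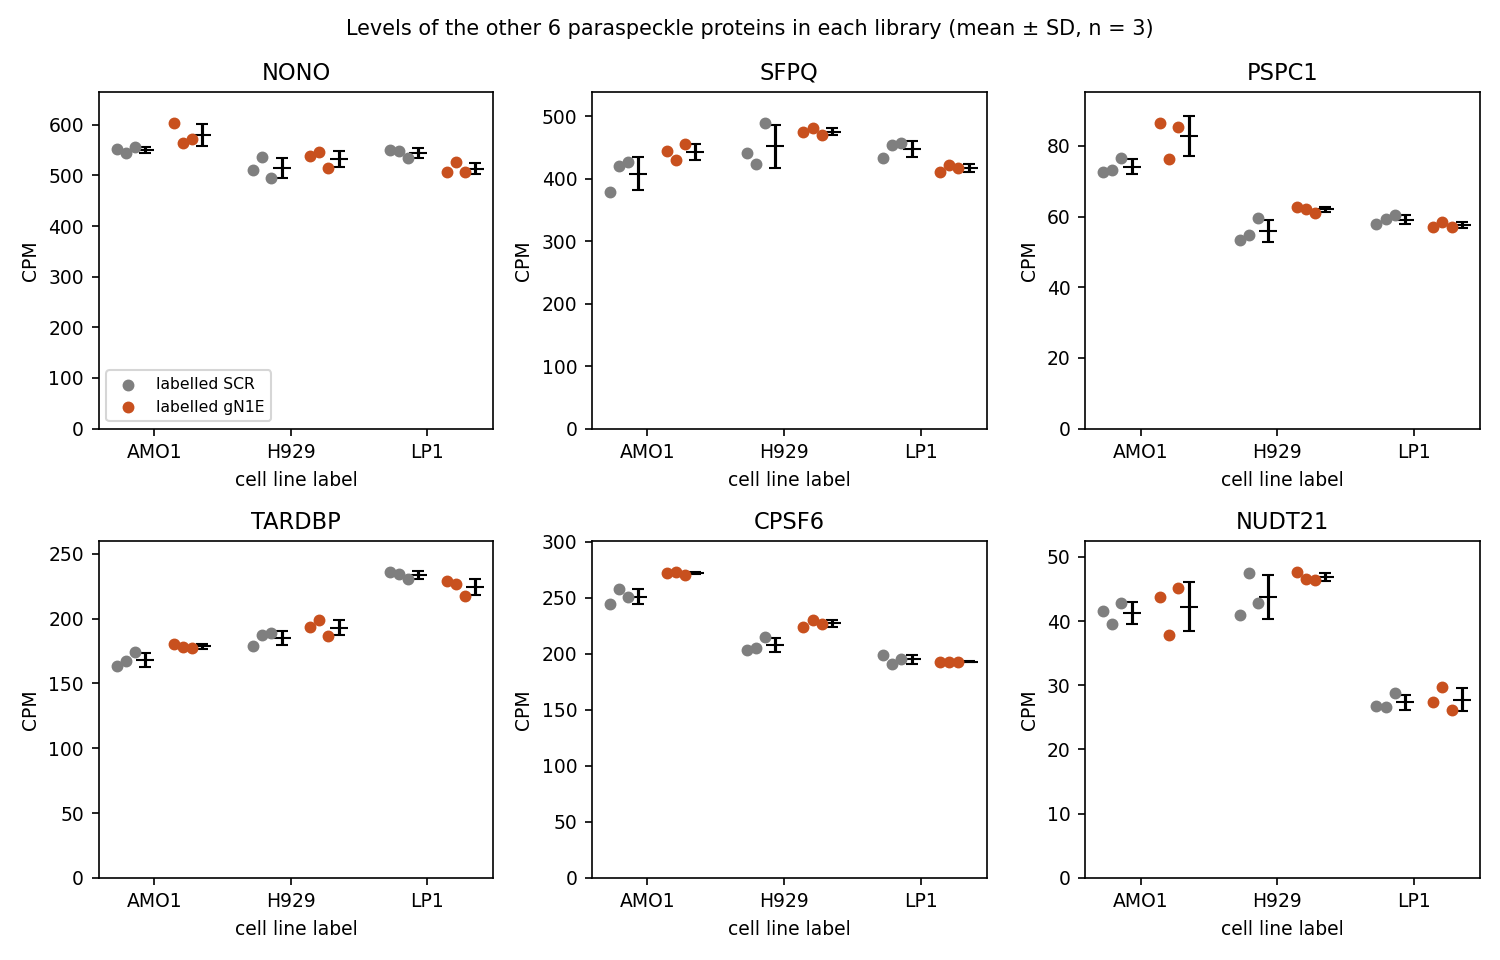
CPM of NONO, SFPQ, PSPC1, TARDBP, CPSF6 and NUDT21 (linear axes from 0) in each library by line label, with black bars for mean ± SD (n = 3). NONO, SFPQ and TARDBP lie higher under gN1E in AMO1 and lower in LP1, while NUDT21 overlaps in all 3 lines.

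Counted by overlap, 5 of the 8 protein members lay higher in every gN1E library than in every SCR library of AMO1, where 9.17% of all genes did. In H929 the count was 4 of 8, against 12.2% of all genes. In LP1 it was 0 of 8, against 7.42%, and 3 of 8 (NONO, SFPQ and TARDBP) lay lower, against 10.6%. When counts were scaled by totals alone, 3, 2 and 2 of the 8 lay higher in AMO1, H929 and LP1, where 5.62%, 7.36% and 11.5% of all genes did. In LP1, 1 of the 8 then lay lower, against 6.24% of all genes. The other gene lists described below were counted on the TMM scale too. In AMO1, 5 of 29 paraspeckle, 3 of 16 cleavage and polyadenylation and 4 of 17 nuclear speckle genes lay higher. In H929 these counts were 10 of 30, 3 of 16 and 4 of 17, and in LP1 1 of 28, 1 of 16 and 2 of 17. In LP1, 3 of 28, 3 of 16 and 0 of 17 lay lower. The median log2 fold change of the 8 was 0.10 in AMO1, 0.10 in H929 and -0.01 in LP1, while that of all genes tested lay between -0.02 and 0.00.

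The response, meaning the log2 fold change between gapmeR labels, was compared between lines in 1 model of all 18 libraries. HNRNPK responded less in LP1 than in H929, by a log2 difference of -0.30 (standard error 0.067, adjusted p = 0.0141, edgeR, 95% interval -0.44 to -0.17). It was 1 of 9 members called in that pair, where 0.874% of all genes were. The call was lost without H929 SCR A, H929 SCR C, H929 gN1E B or LP1 gN1E D (adjusted p of 0.0504 to 0.0654, edgeR) and with scaling by totals alone (log2 difference -0.20, adjusted p = 0.204, edgeR).

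Against AMO1, the LP1 response of HNRNPK differed by -0.26 (standard error 0.067, adjusted p = 0.0515, edgeR). This pair had 0 of 9 members called in edgeR, where 0.741% of all genes were, 7 with an unadjusted p under 0.05 (10.7% of all genes), and 1 called in DESeq2 and in limma-voom, which was HNRNPK (adjusted p = 0.00228 and 0.0139). Without the libraries labelled H929 in the fit, the difference was -0.24 (adjusted p = 0.199, edgeR). The response of NEAT1 in LP1 differed by -0.54 from AMO1 (95% interval -0.93 to -0.14, adjusted p = 0.278, edgeR) and by -0.64 from H929 (95% interval -1.03 to -0.24, adjusted p = 0.197, edgeR), which did not pass. Against H929 it passed in DESeq2 (adjusted p = 0.0293) and without LP1 SCR A (log2 difference -0.77, adjusted p = 0.0277, edgeR). With the replicate letter as a block the NEAT1 difference passed in both pairs (adjusted p = 0.00179 and 2.83e-04, edgeR), and that of HNRNPK against AMO1 passed too (adjusted p = 0.0257, edgeR).

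For SFPQ, NONO, PSPC1, TARDBP and CPSF6 the LP1 response was below that of AMO1 by log2 differences of -0.22, -0.16, -0.20, -0.15 and -0.13, each with an interval that excluded 0 and an adjusted p of 0.205 to 0.431 (edgeR). With totals alone these became -0.14, -0.08, -0.12, -0.06 and -0.05, each within 2 standard errors of 0. Against H929 the LP1 response of SFPQ, NONO, PSPC1, CPSF6 and RBM14 differed by -0.18, -0.14, -0.19, -0.14 and -0.20. Each interval excluded 0, with an adjusted p of 0.30 to 0.48 (edgeR), whereas that of TARDBP (-0.12) included 0. With totals alone the same H929 differences were -0.068, -0.028, -0.079, -0.035 and -0.091. Between AMO1 and H929, 0 of 9 members differed in response in edgeR, DESeq2 or limma-voom, and 0% of all genes were called. RBM14 was the 1 member with an unadjusted p under 0.05 there, with a log2 difference of 0.22 (95% interval 0.06 to 0.37, adjusted p = 0.649, edgeR). These comparisons share libraries, so they are not independent of each other.

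Levels were also compared between line labels. Averaged over both gapmeR labels, 8 of 9 members differed between LP1 and AMO1, where 75.9% of all genes did. The counts were 7 of 9 between H929 and AMO1, against 44.4%, and 7 of 9 between LP1 and H929, against 74.6%. Between H929 and AMO1 the count fell to 4 within SCR and to 4 within gN1E, and between LP1 and H929 to 4 within SCR. The shares of all genes above are of the averaged comparisons, and none is given within a label to set beside these counts. In H929 minus AMO1, RBM14 was 0.11 on average and 0.01 within SCR, and NUDT21 (0.12, adjusted p = 0.0441, edgeR) lost its call in 11 of 25 alternatives. The averaged counts lie near the background for LP1, which differed at most genes. Between LP1 and AMO1 the count was 6 with RLE size factors and in DESeq2, 9 with totals alone, and 7 without the H929 libraries. No share of all genes is given under these settings either, so these counts have no background beside them. RBM14 (log2 difference -0.08, adjusted p = 0.0469, edgeR) lost its call in 15 of 26 alternatives, among them RLE, DESeq2, no filter and the fit without H929, and NONO (-0.10, adjusted p = 0.00757, edgeR) in 4 of 26. Scaling by totals alone moved the median difference of all genes from -0.02 to -0.20 for LP1 minus AMO1 and from -0.05 to -0.24 for LP1 minus H929, and the LP1 differences of the 9 members shifted down with it.

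NEAT1 was higher in LP1 than in AMO1 by a log2 difference of 0.75 (standard error 0.091, adjusted p = 4.32e-06, edgeR). This difference was 1.02 within SCR, 0.48 within gN1E and 0.57 with totals alone. Between H929 and AMO1 it differed by -0.03, with a 95% interval of -0.23 to 0.17. NUDT21 had the widest gap among the proteins. It was at 26.2 to 29.7 CPM in all 6 LP1 libraries and at 37.9 to 47.7 CPM in the other 12, a log2 difference of -0.60 from AMO1 (standard error 0.048, adjusted p = 2.53e-13, edgeR). CPSF6, its partner subunit, was also lower in LP1, by -0.43 (standard error 0.031, adjusted p = 1.63e-14, edgeR). The genes that bind NEAT1 near that site moved the other way, TARDBP by 0.40 and HNRNPK by 0.33 (adjusted p = 2.81e-13 and 7.22e-11, edgeR), or by 0.22 and 0.15 with totals alone. For HNRNPK the difference was 0.46 within SCR and 0.20 within gN1E.

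PSPC1 and CPSF6 set the AMO1 libraries apart from both other labels. PSPC1 was at 72.5 to 86.6 CPM in AMO1 against 53.5 to 62.6 CPM in the 12 other libraries, and CPSF6 at 244.7 to 273.3 against 191.2 to 230.7 CPM. The log2 difference of PSPC1 from AMO1 was -0.41 in H929 and -0.42 in LP1 (adjusted p = 6.90e-11 and 6.31e-12, edgeR), while LP1 minus H929 was -0.01, or -0.20 with totals alone (adjusted p = 1.61e-05, edgeR). Averaged over the gapmeR labels, NONO and SFPQ differed between lines by -0.11 to 0.12. NONO in LP1 minus AMO1 was -0.02 within SCR and -0.18 within gN1E. SFPQ was 0.13 and -0.09 there, and was called within SCR (adjusted p = 0.0234, edgeR). In LP1 minus H929 SFPQ was -0.01 within SCR and -0.19 within gN1E. Its averaged call in that pair was lost with RLE size factors and in DESeq2 (-0.06 in each). With totals alone the difference of NONO was -0.28 for LP1 minus AMO1 and -0.18 for LP1 minus H929, and that of SFPQ -0.16 and -0.29 (adjusted p of 3.20e-04 or less in each, edgeR).

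**Figure D4:**
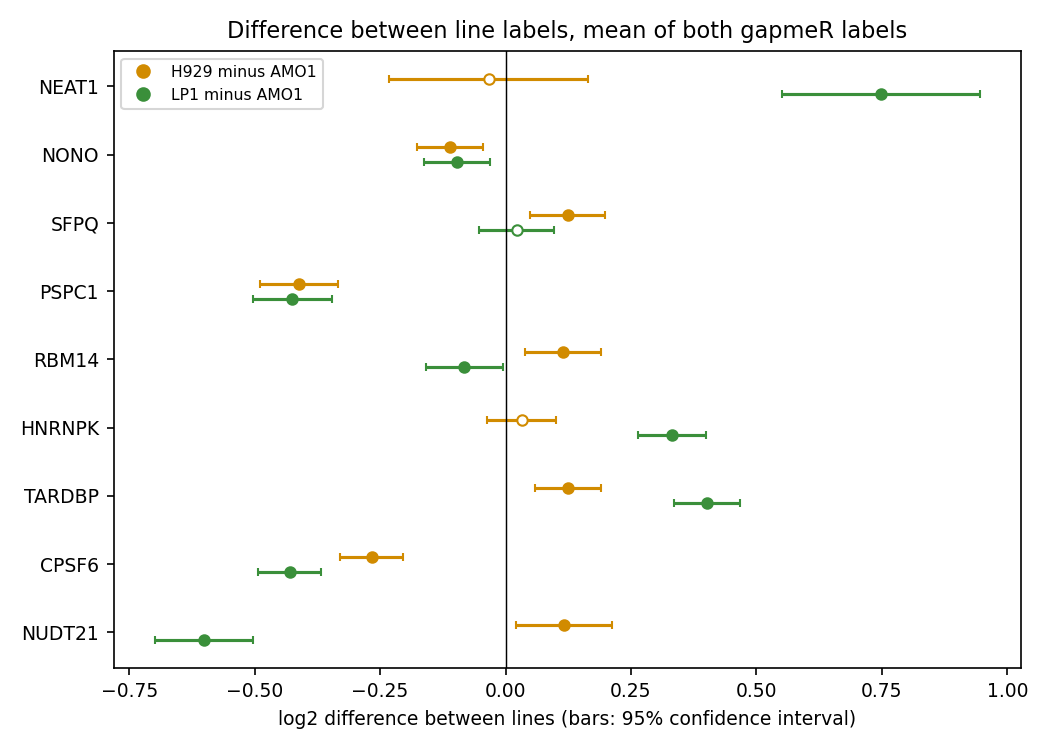
Log2 difference of each member between line labels, H929 minus AMO1 and LP1 minus AMO1, averaged over the gapmeR labels, with 95% confidence intervals and filled points for an adjusted p under 0.05. LP1 is higher in NEAT1, HNRNPK and TARDBP and lower in NUDT21, CPSF6 and PSPC1.

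To compare genes with one another, CPM was divided by the exonic length in kb. In AMO1 under SCR, HNRNPK was highest at 86.6 ± 1.69 CPM per kb (SD, n = 3), followed by SFPQ at 52.9 ± 3.43 and NONO at 49.1 ± 0.539, whose ranges overlapped. CPSF6, TARDBP, RBM14, PSPC1 and NUDT21 followed without overlap, from 31.2 ± 0.809 down to 6.96 ± 0.287 CPM per kb. NEAT1 was lowest of the 9 at 3.59 ± 0.351 CPM per kb. The order HNRNPK, SFPQ, NONO opened every group. TARDBP stood above CPSF6 in H929 and LP1, and below it in AMO1. Under gN1E, NEAT1 reached 22.6 ± 1.76 CPM per kb in AMO1, overlapping with RBM14, and 22.8 ± 2.15 in H929, overlapping with RBM14 there too. In LP1 it rose from 7.27 ± 1.22, above NUDT21, to 31.5 ± 4.25 CPM per kb, overlapping with TARDBP. As the long isoform spans the whole of the exonic length and the short one only its start, the value per kb mixes both.

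**Figure D5:**
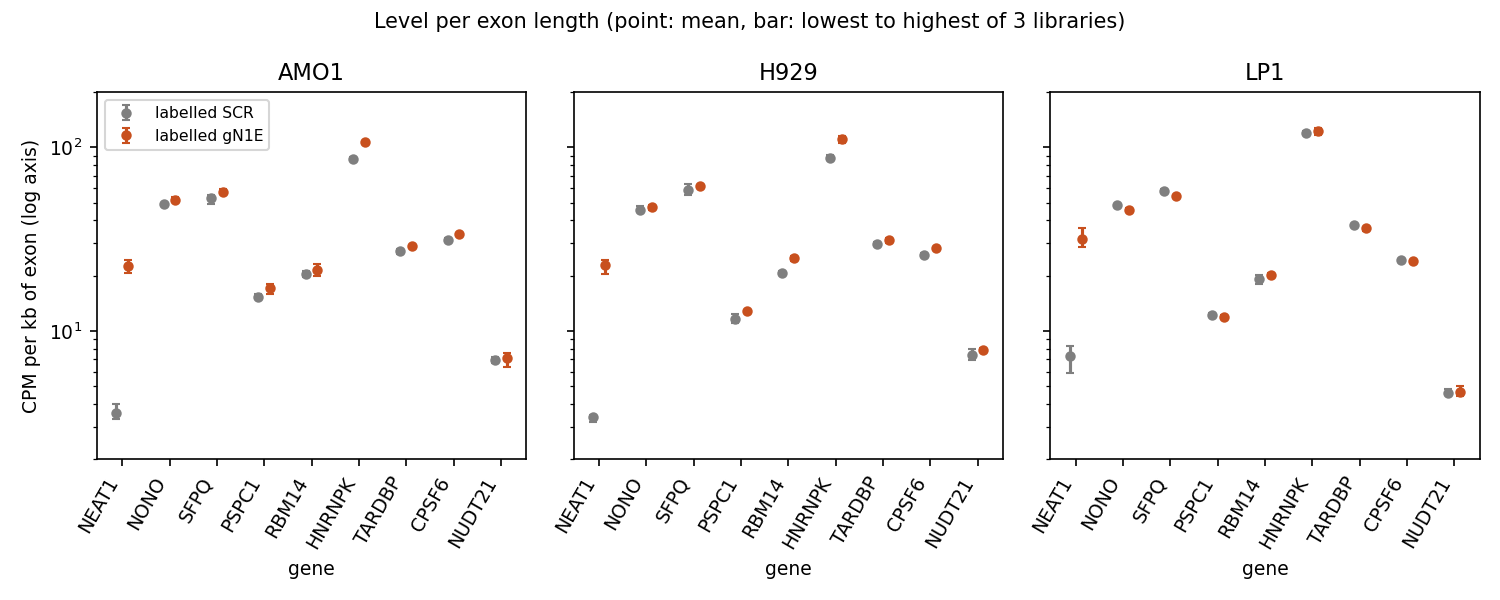
CPM per kb of exonic length (log axis) of each member by line label, with points for the mean and bars from the lowest to the highest of 3 libraries. NEAT1 moves from the bottom of the 9 in AMO1 and H929 under SCR to the range of RBM14 under gN1E.

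Of 32 other known paraspeckle components, 31 matched 1 gene each. In AMO1, 1 of 29 tested was called, in H929 5 of 30 and in LP1 1 of 28, beside 2.06%, 5.47% and 1.43% of all genes. DESeq2 called 2, 6 and 1 of the same genes tested and limma-voom 2, 5 and 1. Over all genes edgeR called 473, 1286 and 332, DESeq2 619, 1317 and 512, and limma-voom 384, 998 and 262. UBAP2L, a protein better known from stress granules, was called in all 3 lines in the direction of NEAT1. It went from 261.8 ± 14.1 to 419.3 ± 20.2 CPM in AMO1 (SD, n = 3), or by 0.68 on the log2 scale (adjusted p = 1.24e-07, edgeR). In H929 it went from 269.7 ± 17.6 to 492.8 ± 20.7 CPM and in LP1 from 449.7 ± 21.8 to 626.8 ± 18.4 CPM, with log2 fold changes of 0.86 and 0.50 (adjusted p = 9.92e-13 and 8.87e-06, edgeR). In H929 CPSF7, another CFIm subunit, rose by 0.19 (adjusted p = 0.0104, edgeR) and ZC3H6 fell by 0.49 (adjusted p = 0.00685, edgeR). EWSR1, an RNA-binding protein, was also called in H929 and is named after its values were seen (log2 fold change 0.16, adjusted p = 0.0402, edgeR). The median log2 fold change over the list was 0.06, 0.04 and -0.02 in AMO1, H929 and LP1.

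None of 16 other cleavage and polyadenylation genes was called in any line in edgeR, DESeq2 or limma-voom, and 1, 3 and 1 had an unadjusted p under 0.05 in edgeR in AMO1, H929 and LP1, where 12.2%, 17.7% and 13.0% of all genes did. Of 17 nuclear speckle genes, edgeR called 0 in AMO1, 2 in H929 and 0 in LP1, beside 2.06%, 5.47% and 1.43% of all genes. Over all genes DESeq2 called 619, 1317 and 512 and limma-voom 384, 998 and 262. Of the 17, DESeq2 called 1, 3 and 1 and limma-voom 0, 2 and 0. An unadjusted p under 0.05 in edgeR was found for 2, 5 and 2, against the same 12.2%, 17.7% and 13.0% of all genes. The edgeR calls in H929 were SRRM2, a scaffold of speckles (log2 fold change 0.18, adjusted p = 0.0370, edgeR), and the kinase CLK1, which fell by 0.20 (adjusted p = 0.0128, edgeR).

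The genes whose log2 CPM ran most like a member's were ranked by Pearson's r over the 18 libraries, among 11524 genes. The points share line and gapmeR label, so r describes the pattern over these groups. For NEAT1 they were NAPG (0.966), GOLGA6L9 (0.961), EXT2 (0.945), GMDS (0.944) and CNOT6 (0.942). HNRNPK ran with DROSHA (0.977) and FBXL5 (0.967), and RBM14 with BRPF1 (0.968) and ADCY3 (0.936). TARDBP ran with HDGF (0.988) and DKC1 (0.987), CPSF6 with ATP8A1 (0.987) and OXCT1 (0.985), and NUDT21 with SNRPG (0.989) and PSMF1 (0.986). PSPC1 ran with RAB3GAP1 (0.957) and ATP13A3 (0.947). NONO, with GORASP2 (0.895) and SPRY4 (0.876), and SFPQ, with STAU2 (0.875) and ASPM (0.821), had the lowest values among the 9.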

How the data were processed

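The authors deposited raw counts per gene for 18 stranded total RNA libraries, sequenced as pairs of 150 bases. Per the submitters' processing notes and the file headers, reads were aligned to hg38 with STAR 2.7.10a and counted by strand with featureCounts 1.6.4 on exons of GENCODE release 43. The command in the headers does not ask for reads that fall on several genes or places. Each table lists 62703 genes, of which 62686 were given a symbol. Groups came from the sample labels.

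Counts were tested with edgeR 4.0.16 in R 4.3.3 (TMM, robust quasi-likelihood fit, at least 10 reads in at least 1 library, Benjamini-Hochberg adjustment over all genes, threshold 0.05), for each line and, for differences between lines, jointly over 26436 genes. The fits were tested on simulated data, but no outcome is given here and no result above rests on it. CPM used total counts scaled by TMM over the 18 libraries, except for IGHV3-23, IGHG1, CCND2 and FGFR3, which used totals. Correlations used log2 of CPM plus 0.5, at a mean log2 CPM of at least 2 for alike genes and at least 1 between lines. Confidence intervals are at 95%. Depth ran from 28061606 to 69937229 counts. No pair among the 153 pairs of libraries held identical counts.

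Alternatives were RLE size factors, totals alone, DESeq2 1.42.0, limma-voom 3.58.1, no filter, a replicate block, a joint fit, 1 gapmeR label only and each library left out. Another used the thresholds in the study's supplementary methods (adjusted p under 0.1, 1.5-fold). The Results of the study name a false discovery rate under 0.05 and no fold limit. Leaving out the H929 libraries was added after seeing the data. Deviations of libraries with the same letter correlated at 0.341, 0.260 and 0.173 in AMO1 (A, C and D). They correlated at -0.205 to -0.072 in H929 and at 0.300, -0.077 and -0.143 in LP1 (A, B and D). Only A and C in AMO1 and A in LP1 matched best with their own letter. The members and gene lists were chosen with earlier results of these data known. Named are the 9 members, the 5 genes most like NEAT1 and the 2 most like each other member, and up to 3 called genes with the smallest adjusted p (at least 1 CPM) per list and line. Promoters were read from RefSeq with Python 3.11.15 and pandas 2.3.3, and figures drawn with matplotlib 3.10.9. The values of 1 called gene of the lists are not reported here.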

Additional observations from a re-analysis of the deposited data

Results flagged for a closer look

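HNRNPK responded differently in 2 of the line labels by the interaction test: the response in LP1 minus that in H929 was -0.302 on the log2 scale (adjusted p = 0.0141, edgeR). The call was lost with totals alone (-0.195, adjusted p = 0.204, edgeR) and without H929 SCR A, H929 SCR C, H929 gN1E B or LP1 gN1E D (adjusted p of 0.0504 to 0.0654, edgeR). LP1 already held HNRNPK at 669.7 CPM or more under SCR, where AMO1 and H929 were at 515.6 CPM or less, and what part this has in the difference was not tested.

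NONO, SFPQ and TARDBP had labels that stood apart in opposite directions, higher under gN1E in all AMO1 libraries and lower in all LP1 libraries. The log2 difference of their responses, LP1 minus AMO1, was -0.16, -0.222 and -0.147, and the tests of those differences did not pass (adjusted p = 0.333, 0.205 and 0.387, edgeR). With totals alone the differences were -0.076, -0.137 and -0.062 (adjusted p = 0.714, 0.547 and 0.804, edgeR). On that scale NONO kept both separations, SFPQ neither, and TARDBP that in AMO1. On the TMM scale 9.17% of all genes lay higher throughout under gN1E in AMO1 and 10.6% lower throughout in LP1. The share of all genes that did both was not counted, so how common the pattern is among them is not known.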

How the results depend on the processing

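Under the alternatives 51 values lost a call, 12 gained one without a change of direction, and 21 reversed. With totals alone, the reversed values of SFPQ in LP1 minus AMO1 and NONO in LP1 minus H929 gained a call as well. Another 21 values, all counts, moved by over 1.5 times, while 1488 values did none of these, among them counts that changed by less. Counts of members called between gapmeR labels fell to 1 in AMO1 and in H929, which was NEAT1, with adjusted p under 0.1 and 1.5-fold. These limits are those of the study's supplementary methods. Left-out libraries gave 0 to 1 members in LP1, with the NEAT1 log2 fold change at 2.003 to 2.251. Members with a different response between AMO1 and LP1 were 1 with RLE size factors, DESeq2 and limma-voom and 2 with the replicate block. Between H929 and LP1 they were 0 with totals alone, 2 in DESeq2, 2 with the replicate block and 0 to 2 with a library left out. Members called between lines were 4 for AMO1 and H929 within SCR and 4 within gN1E, and 4 for H929 and LP1 within SCR. No share of all genes is given, within a label or under the other settings, to set beside the counts in this paragraph.

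Reversals touched values near 0. With totals alone NONO between labels in H929 became -0.008, PSPC1 in LP1 0.011, SFPQ in LP1 minus AMO1 -0.161 and NONO in LP1 minus H929 -0.177, the last pair past the threshold. PSPC1 in LP1 minus H929 became 0.031 with RLE, 0.032 in DESeq2 and 0.081 within SCR. Without a filter CPSF6 in LP1 became -0.001 and NONO in LP1 minus H929 -0.001, and CPSF6 in LP1 was -0.015 in the joint fit. Within gN1E NEAT1 in H929 minus AMO1 became 0.015, SFPQ in LP1 minus AMO1 -0.089 and NONO in LP1 minus H929 -0.055. With a library left out, NUDT21 ran from -0.012 to 0.11 in AMO1 and -0.007 to 0.084 in LP1, PSPC1 in LP1 from -0.039 to 0.006, CPSF6 in LP1 from -0.012 to 0.016, NEAT1 in H929 minus AMO1 from -0.059 to 0.007, SFPQ in LP1 minus AMO1 from -0.004 to 0.038 and PSPC1 in LP1 minus H929 from -0.03 to 0.01. The cause was not tested.

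The replicate block gave 3 called members in AMO1, 3 in H929 and 1 in LP1, while the calls over all genes went from 473 to 1394, from 1286 to 931 and from 332 to 243. In H929 the correlations by letter were negative (-0.205 to -0.072). In LP1 letter A correlated at 0.300, while B and D were negative, so the letters do not pair every library there. In AMO1 letter D did not match best with its own letter. The block changed no other call than those of PSPC1, NEAT1 and HNRNPK given above. Scaling by totals alone moved the median of all genes to -0.054, -0.055 and 0.027 in AMO1, H929 and LP1.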

Other observations

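Ratios of levels per kb were compared within the DBHS family. In LP1, SFPQ was at 1.14 to 1.24 times NONO under SCR and at 1.17 to 1.20 times under gN1E. In AMO1 the ratio was 0.993 to 1.12 under SCR and 1.07 to 1.16 under gN1E, and in H929 1.15 to 1.44 and 1.28 to 1.33. NONO was at 3.12 to 3.27 times PSPC1 in AMO1 under SCR, at 3.57 to 4.19 times in H929 and at 3.80 to 4.09 times in LP1.

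Between the CFIm subunits, CPSF6 was at 4.31 to 4.81 times NUDT21 in AMO1 under SCR, at 3.19 to 3.70 times in H929 and at 5.01 to 5.48 times in LP1, without overlap among the 3 lines. Under gN1E the ratios were 4.41 to 5.31, 3.46 to 3.65 and 4.79 to 5.43, where AMO1 and LP1 overlapped. NEAT1 was at 0.0353 to 0.0677 times HNRNPK per kb in the 9 libraries labelled SCR and at 0.178 to 0.311 times in the 9 labelled gN1E. The ratios of CPSF6 to NUDT21 inherit the limit on NUDT21's count, and no test was run on any of these ratios.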
